A study of Homo sapiens with 12 samples.

Results

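The YAP and TEAD axis was followed through 10 genes in PC9 cells, namely the coactivator genes YAP1 and WWTR1 (which encodes TAZ), the 4 TEAD genes TEAD1, TEAD2, TEAD3 and TEAD4, and the target genes CCN1, CCN2, ANKRD1 and AMOTL2. The genes were chosen by name as the core of the axis, with earlier results of these data known. Each was found once among the 62754 gene identifiers of the table, and all 10 passed the filter on low counts. PC9 is an established human lung adenocarcinoma line with an activating EGFR mutation, and erlotinib inhibits the EGFR kinase. Every culture descended from 1 subclonal PC9 line. The 3 cultures of each group were split from 1 flask and then grown apart, so p-values measure the spread between such sister cultures. For each gene this spread was estimated over all 12 libraries together, so all 4 groups enter it in every comparison. Untreated WT denotes cells with wild-type TDP1 and no drug. DTC denotes the same genotype kept for 7 days with erlotinib at 1 µM, named drug-tolerant cells in the labels. DTEC denotes that genotype at 28 days of erlotinib at 1 µM, named drug-tolerant expanded cells. KO was the TDP1 knockout line KO2 without drug, which is a single line, so the knockout and the line cannot be told apart.

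YAP and TAZ are transcriptional coactivators at the end of the Hippo pathway. The kinases MST (STK3 and STK4) activate LATS1 and LATS2, which phosphorylate YAP and TAZ and keep them in the cytoplasm. In the nucleus YAP and TAZ bind no DNA themselves and act through TEAD proteins, which recognise short motifs in promoters and enhancers. RNA levels do not show how much YAP is nuclear. In lung epithelium the axis is known for its part in regeneration and in responses to stretch and wounding, and in cancer cells for its activity under targeted drugs.

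The 12 libraries held 25572691 to 38373679 estimated counts, so 3 counts corresponded to 0.0824 to 0.115 CPM (a count divided by its library total as scaled by the TMM method, on the usual CPM scale). The labels place all 12 in 1 batch. TDP1 was at 10.1, 11.3 and 11.0 CPM in KO and at 28.1, 25.1 and 25.8 CPM in untreated WT, with DTC at 12.7 to 15.7 CPM. KO gave a log2 fold change of -1.29 (SE 0.110, adjusted p 1.30e-05). DTC replicate 1 stood farthest from its group, with a median absolute log2 difference of 0.348 from the other 2 cultures, against 0.0886 to 0.256 in the other 11 libraries. Mitochondrial genes took 4.43% to 5.41% of the counts in DTC, and for untreated WT, DTEC and KO the ranges were 2.504% to 2.77%, 1.82% to 2.38% and 2.59% to 2.78%. All 5 epithelial markers were detected, and the levels of all marker lists are given beside the results of the target genes. The choice of scaling moved all genes. With total counts alone the median log2 fold change of the tested genes was 0.41 in DTC, 0.186 in DTEC and -0.195 for DTEC against DTC, in place of 0.0551, 0.0179 and -0.00845. Called genes were higher in 68.4% of cases in place of 50.5% in DTC, 63.7% in place of 49.7% in DTEC, 37.4% in place of 51.9% for DTEC against DTC and 78.8% in place of 64.1% in KO. Upper-quartile scaling gave 65% in DTC and 38.7% for DTEC against DTC.

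The stretches around the TEAD-type motif GGAATG, or CATTCC on the other strand, are shown for CCN2, ANKRD1 and AMOTL2 because these are the target genes with a match before a RefSeq start. RefSeq promoter windows (GRCh38.p14) were matched by symbol for 7 of the 10 genes, not for CCN1, TEAD1 and TEAD4, and the 250 bases before each RefSeq start were searched on both strands. The motif is in capitals and each sequence runs 5′ to 3′ on the strand of its gene. The first lies upstream of CCN2 at chr6:131951374-131951622 on the minus strand. The next pair belongs to ANKRD1, at chr10:90921277-90921337 and chr10:90921198-90921227 on the minus strand, and the last to AMOTL2 at chr3:134374499-134374528 on the minus strand.
CCN2: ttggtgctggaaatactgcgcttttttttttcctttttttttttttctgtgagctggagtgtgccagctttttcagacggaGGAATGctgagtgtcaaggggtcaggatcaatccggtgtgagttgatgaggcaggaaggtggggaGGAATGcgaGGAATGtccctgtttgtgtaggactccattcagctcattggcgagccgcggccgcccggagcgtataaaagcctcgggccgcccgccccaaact
ANKRD1, upstream: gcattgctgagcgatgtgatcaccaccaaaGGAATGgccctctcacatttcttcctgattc
ANKRD1, within the first exon of GENCODE 29: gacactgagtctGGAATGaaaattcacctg
AMOTL2, within the first exon of GENCODE 29: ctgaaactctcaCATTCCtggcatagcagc

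CCN2 held 3 copies of the motif, which began 169, 104 and 95 bases before its RefSeq start, and the latter pair was separated by 3 bases. ANKRD1 held 2 copies, which began 220 and 128 bases before the start, the nearer one inside the 5′ UTR of the GENCODE 29 model. AMOTL2 held 1 copy in the window of the second of its starts, on the opposite strand, and YAP1 held 1 copy that began 162 bases before its start. No match was found in these windows of WWTR1, TEAD2 or TEAD3. Of 35116 windows of the same length, 11.9% held at least 1 match, 0.940% at least 2 and 0.0826% at least 3. A match describes the letters and was not measured as a bound site.

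**Figure D1:**
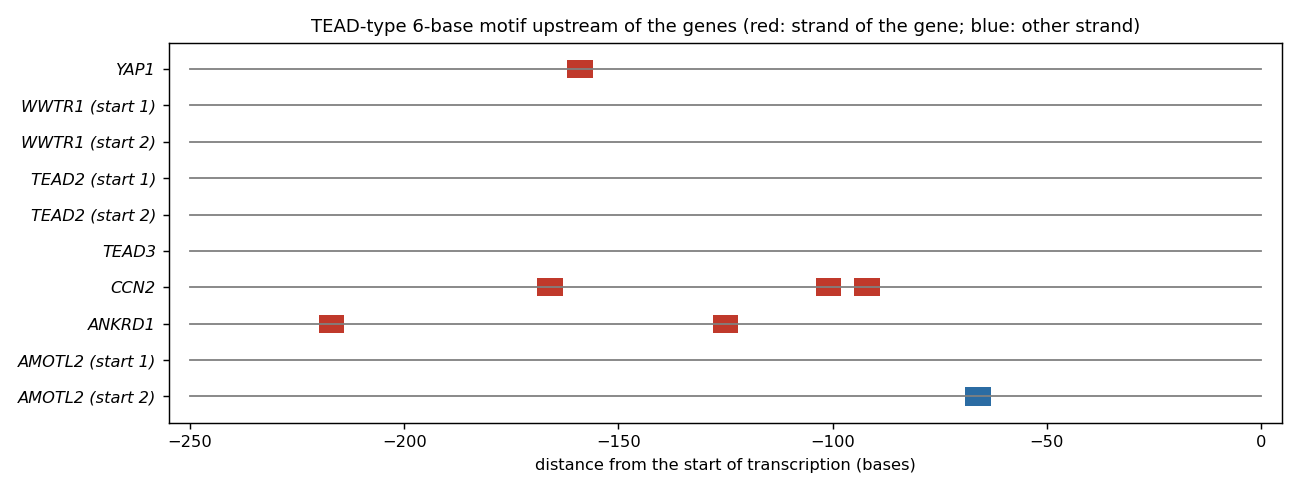
Positions of the 6-base motif in the 250 bases before each RefSeq start (x axis, distance from the start in bases; 1 line for each start of a gene; red on the strand of the gene, blue on the other strand). CCN2 carries 3 matches, ANKRD1 2, and YAP1 and AMOTL2 1 each.

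After 7 days in erlotinib the coactivator genes and TEAD4 were lower while all 4 target genes were higher. Of the 10 genes, 9 were called against untreated WT, 5 higher and 4 lower, when 67.3% of the 17115 tested genes were called, 34.0% higher and 33.3% lower. After 28 days 7 of the 10 genes were called, 5 higher and 2 lower, against a background of 52.3% (26.0% higher and 26.3% lower). Between 28 and 7 days 9 genes were called, 5 higher and 4 lower in DTEC, against 55.4% (28.8% higher and 26.6% lower). In KO 0 of the 10 were called in the reported analysis by edgeR's quasi-likelihood test, where 4.31% of genes were (2.76% higher and 1.55% lower). An unadjusted p under 0.05 was reached by 3 of the 10 in KO, against 16.6% of all tested genes. DESeq2 called 3, and other settings of edgeR called up to 4. Most genes were called in each comparison that involved the drug, and the counts over 10 genes are to be read against that. The libraries of both groups did not overlap for 8 of the 10 genes in DTC against untreated WT, 7 in DTEC against untreated WT and 9 in DTEC against DTC, where 68.9%, 62.4% and 56.7% of all tested genes had no overlap. DTC, DTEC and KO were all set against the same 3 untreated WT libraries, so the comparisons are not independent of each other.

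**Figure D2:**
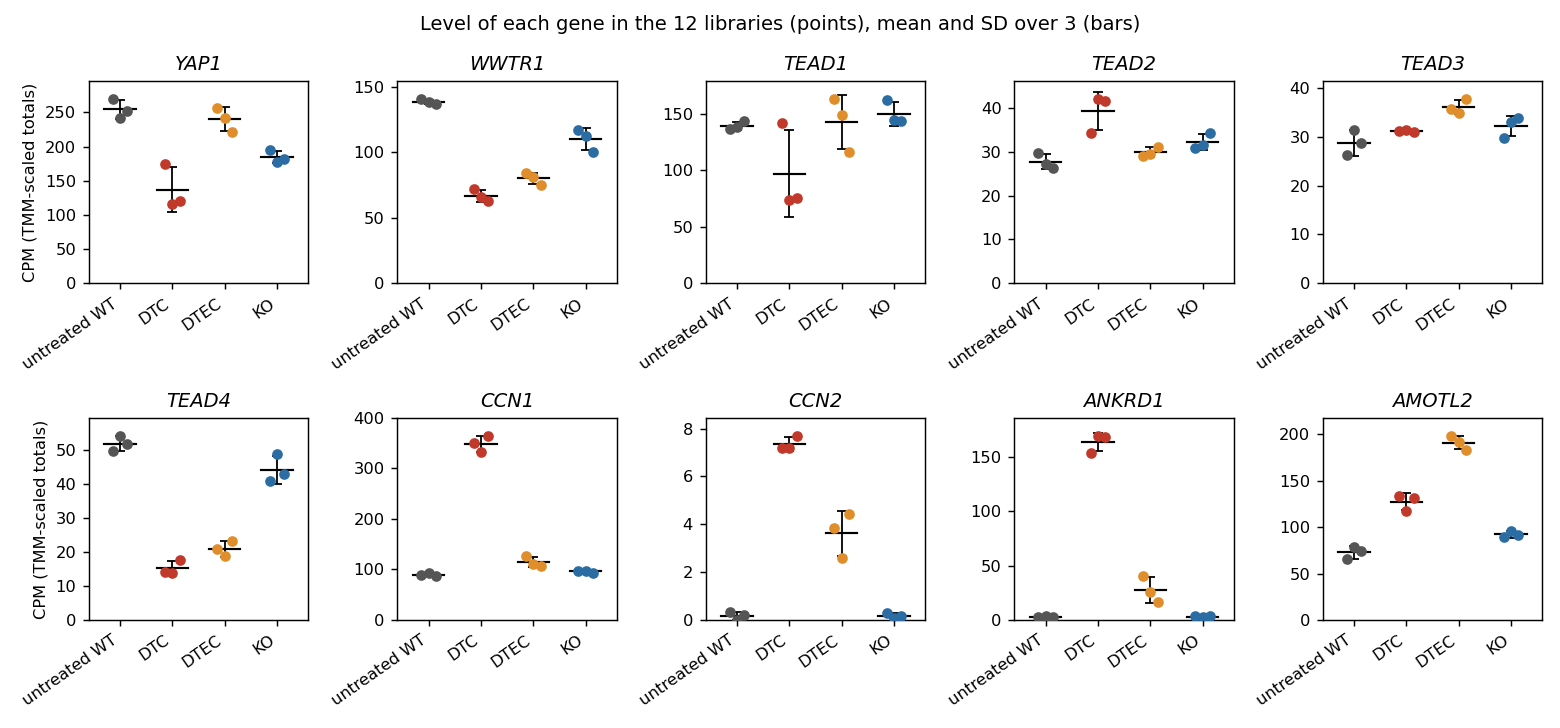
Level of each of the 10 genes (y axis, CPM on TMM-scaled totals) in the 12 libraries, with points for libraries, horizontal lines for group means and bars for the SD over 3. CCN1, CCN2 and ANKRD1 peak in DTC, AMOTL2 peaks in DTEC, and WWTR1 and TEAD4 are lower in both drug-treated groups than in untreated WT.

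YAP1 (chr11:102110461-102233423, plus strand, GRCh38) encodes YAP. Its level was 269, 242 and 253 CPM in untreated WT, 175, 116 and 120.1 CPM in DTC, 257, 242 and 222 CPM in DTEC, and 195, 178 and 182 CPM in KO. The DTC libraries all lay below the untreated WT libraries, those of DTEC overlapped them, and those of KO lay between untreated WT and DTC, with DTC replicate 1 just below the lowest KO library. YAP1 was 0.539-fold in DTC (log2 -0.89, SE 0.137, adjusted p 4.75e-05). In DTEC the difference from untreated WT was -0.08 on the log2 scale (SE 0.136, adjusted p 0.633), and against DTC it was 0.81 higher (SE 0.137, adjusted p 0.000188). Without DTC replicate 1 these values were -1.07 in DTC and 1.01 for DTEC against DTC. In bulk RNA, fewer cells of a type and less RNA per cell cannot be told apart.

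WWTR1 (chr3:149517235-149736714, minus strand) encodes TAZ, the paralog of YAP. It was at 140.3, 138 and 137 CPM in untreated WT, 71.9, 65.5 and 62.8 CPM in DTC, and 84.0, 80.9 and 75.3 CPM in DTEC. Both drug-treated groups lay wholly below untreated WT, and the lowest DTEC library lay above the highest DTC library. The log2 fold change was -1.05 in DTC (SE 0.0938, adjusted p 2.11e-07) and -0.79 in DTEC (SE 0.0933, adjusted p 8.61e-06). WWTR1 therefore stayed low at 28 days, when YAP1 did not differ from untreated WT beyond the spread. The step from 7 to 28 days was 0.26 (adjusted p 0.0270) and was called in 4 of 13 alternative analyses, the adjusted p reaching 0.505 with total counts alone. It was lost without DTC replicate 2 (0.116), DTC replicate 3 (0.160), DTEC replicate 1 (0.109) or DTEC replicate 2 (0.0995). Per kilobase of exon, WWTR1 made up 28.9% ± 0.937 (SD, n = 3) of the summed level of both genes in untreated WT, 27.1% ± 3.22 in DTC, and 19.97% ± 0.277 and 30.8% ± 1.46 in DTEC and KO. The 3 DTEC shares, from 19.7% to 20.2%, lay below every other library.

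Among the TEAD genes, TEAD4 (chr12:2959330-3040673, plus strand) had the largest differences from untreated WT in DTC and in DTEC. TEAD4 was at 49.7, 54.0 and 51.7 CPM in untreated WT, 14.2, 13.9 and 17.6 CPM in DTC, 20.7, 18.7 and 23.4 CPM in DTEC and 40.8, 48.6 and 42.9 CPM in KO. Untreated WT lay above all 9 other libraries, and DTC below all DTEC libraries. TEAD4 was 0.294-fold in DTC (log2 -1.77, SE 0.122, adjusted p 1.61e-08) and 0.405-fold in DTEC (log2 -1.31, SE 0.120, adjusted p 8.28e-07). Of all tested genes, 96.5% had a larger rise or a smaller fall in DTC, and 96.3% in DTEC. TEAD4 rose by 0.46 from 7 to 28 days (SE 0.121, adjusted p 0.00493), a call lost with total counts alone (0.0684) and with upper-quartile scaling (0.0583).

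TEAD1 (chr11:12674591-12944483, plus strand) differed between cultures of DTC more than between most groups. Its level was 136, 138 and 143 CPM in untreated WT, 142, 73.7 and 75.9 CPM in DTC, 163, 149 and 116 CPM in DTEC, and 162, 144 and 143 CPM in KO. DTC replicate 1 lay within untreated WT while the other 2 DTC cultures lay far below, so the groups overlapped. The log2 fold change in DTC was -0.52 (SE 0.208, adjusted p 0.0395), and it was called in 4 of 13 alternatives. Without DTC replicate 1 it was -0.86 (adjusted p 5.50e-06), and it was not called without DTC replicate 2 (0.237), DTC replicate 3 (0.223) or untreated WT replicate 1 (0.0854), 2 (0.0852) or 3 (0.105). In DTEC the value was 0.03 (adjusted p 0.906). DTEC against DTC gave 0.55 (SE 0.208, adjusted p 0.0365), which was called in 6 of 13 alternatives, became 0.91 (adjusted p 4.63e-06) without DTC replicate 1, and was lost without DTC replicate 2 (0.194), DTC replicate 3 (0.182), DTEC replicate 1 (0.143) or DTEC replicate 2 (0.106).

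TEAD2 (chr19:49340595-49362457, minus strand) was the 1 TEAD gene called higher in DTC, joined by TEAD3 with total counts alone and with upper-quartile scaling. TEAD2 was at 29.6, 27.2 and 26.2 CPM in untreated WT, 34.3, 41.9 and 41.5 CPM in DTC, and 29.1, 29.4 and 31.1 CPM in DTEC. DTC lay above both other groups, and DTEC overlapped untreated WT. TEAD2 was 1.42-fold in DTC (log2 0.50, SE 0.102, adjusted p 0.000549) and fell by 0.39 on the log2 scale from DTC to DTEC (SE 0.102, adjusted p 0.00459). TEAD3 (chr6:35473597-35497076, minus strand) had 26.2, 31.4 and 28.7 CPM in untreated WT, 31.2, 31.5 and 30.9 CPM in DTC, and 35.7, 34.9 and 37.6 CPM in DTEC. Its DTEC libraries lay above those of untreated WT and DTC, and DTC overlapped untreated WT. TEAD3 was called higher in DTEC (log2 0.33, adjusted p 0.00996; 0.0522 with no count filter) and not in DTC (0.12, adjusted p 0.284), where total counts alone gave 0.47 (adjusted p 0.000542). The difference between DTEC and DTC was not called (0.21, adjusted p 0.0757).

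The make-up of the TEAD transcripts changed accordingly. Levels of different genes are compared here per kilobase of the union of exons. TEAD4 made up 41.4% ± 0.621 (SD, n = 3) of the summed TEAD level in untreated WT, 17.0% ± 2.49 in DTC, and 20.5% ± 2.34 and 35.02% ± 2.35 in DTEC and KO. TEAD2 made up 16.9% ± 1.41 in untreated WT and 33.5% ± 5.18 in DTC, from 27.6% to 37.3%. TEAD1 took 33.0% of the sum in DTC replicate 1 and 19.0% and 18.8% in the other DTC libraries. The sum of the 4 genes was 55.1 ± 1.48 CPM per kb in untreated WT, 39.5 ± 2.08 in DTC, and 44.9 ± 1.29 and 55.4 ± 1.44 in DTEC and KO. The DTC and DTEC sums did not reach the lowest untreated WT library, at 53.7 CPM per kb. These shares are descriptions with no test.

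**Figure D3:**
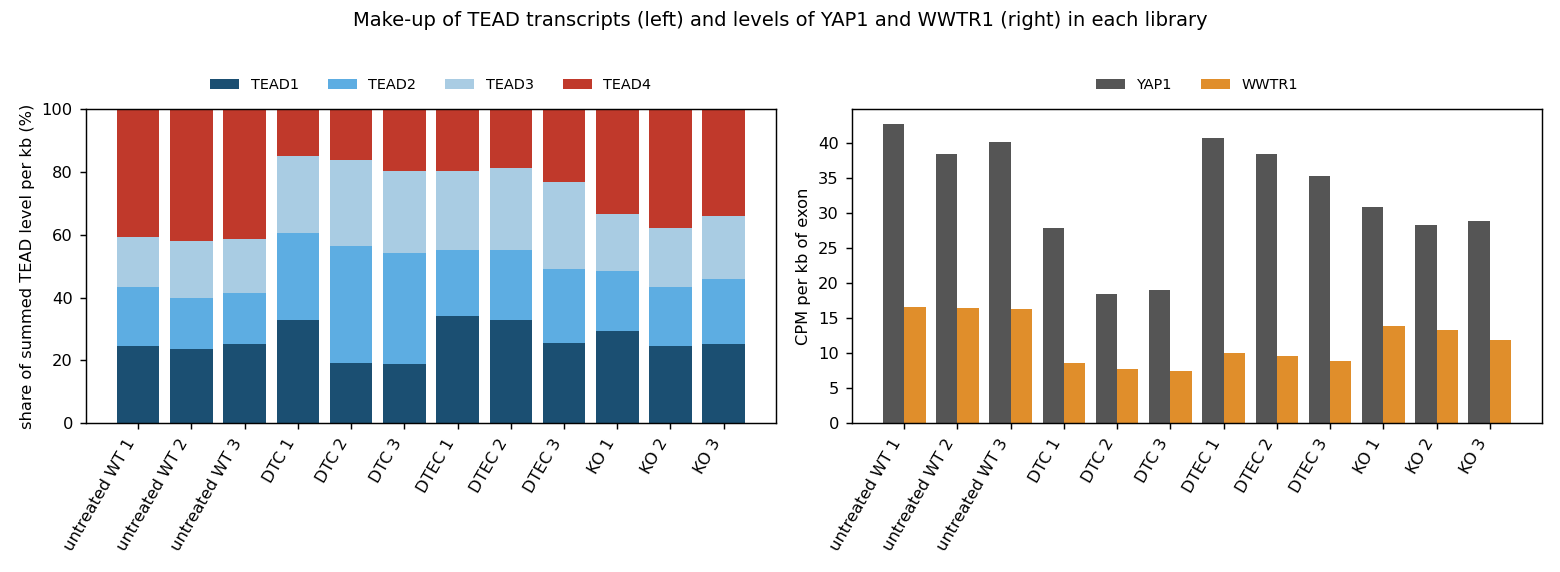
Left, the share of each TEAD gene in the summed TEAD level per kilobase (y axis, %) in each library. Right, the levels of YAP1 and WWTR1 (y axis, CPM per kb of exon). TEAD4 (red) takes 40.8% to 42.0% in untreated WT and 14.9% to 23.2% in the drug-treated libraries, and TEAD1 and YAP1 are higher in DTC 1 than in DTC 2 and 3.

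CCN1 and CCN2 encode secreted matricellular proteins and are classic YAP and TEAD targets. CCN1 (chr1:85580761-85583962, plus strand, named CYR61 in GENCODE 29) was at 89.5, 92.6 and 86.8 CPM in untreated WT, 349, 332 and 364 CPM in DTC, 127, 110.7 and 107.5 CPM in DTEC, and 98.0, 97.4 and 92.9 CPM in KO. The DTC libraries stood far above all others, and the DTEC libraries stood above untreated WT without overlap. CCN1 was 3.89-fold in DTC (log2 1.96, SE 0.0934, adjusted p 5.63e-10) and 1.28-fold in DTEC (log2 0.36, SE 0.0907, adjusted p 0.00410). The fall from 7 to 28 days was -1.60 on the log2 scale (SE 0.0923, adjusted p 7.83e-09).

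CCN2 (chr6:131948176-131951373, minus strand, named CTGF in GENCODE 29) was rare throughout. It had 11, 0 and 7 counts in untreated WT, 213, 244 and 262 in DTC, 126, 68 and 161 in DTEC, and 8, 3 and 6 in KO. These are 0.329, 0 and 0.202 CPM in untreated WT, where 0 counts allow up to 0.101 CPM, and 7.20, 7.18 and 7.68 CPM in DTC, 3.84, 2.60 and 4.42 CPM in DTEC, and 0.281, 0.0971 and 0.166 CPM in KO. Every drug-treated library lay above every untreated library, and every DTC library above every DTEC library. The fitted log2 fold change was 5.30 in DTC (SE 0.471, adjusted p 2.40e-07) and 4.29 in DTEC (SE 0.475, adjusted p 5.35e-06). Both rest on few counts in the untreated cells, and without untreated WT replicate 1 they became 6.07 and 5.05. DTEC against DTC gave -1.02 (SE 0.342, adjusted p 0.0214), which was not called without DTC replicate 3 (0.0545) or DTEC replicate 2 (0.0832).

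ANKRD1 (chr10:90912096-90921276, minus strand) encodes an ankyrin-repeat protein of the nucleus and the sarcomere that is much used as a YAP target. ANKRD1 was at 2.78, 3.37 and 2.97 CPM in untreated WT, 154, 169 and 168 CPM in DTC, 40.2, 25.9 and 16.5 CPM in DTEC, and 3.26, 2.72 and 3.46 CPM in KO. The 4 groups fell in separate ranges, save that KO and untreated WT overlapped, and the DTEC cultures differed among themselves by more than those of any other group (27.5 ± 11.9 CPM, SD, n = 3). ANKRD1 was 53.9-fold in DTC (log2 5.75, SE 0.282, adjusted p 1.69e-09), a rise exceeded by 1.38% of the tested genes, and 9.05-fold in DTEC (log2 3.18, SE 0.263, adjusted p 5.74e-07), exceeded by 2.16%. From 7 to 28 days it was 0.168-fold (log2 -2.57, SE 0.234, adjusted p 1.12e-06).

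AMOTL2 (chr3:134355874-134375479, minus strand), an angiomotin family member that binds YAP and restrains it, had a different course from the other targets. AMOTL2 was at 65.4, 79.1 and 74.8 CPM in untreated WT, 134, 117 and 131 CPM in DTC, 198, 192 and 183 CPM in DTEC, and 89.3, 96.2 and 91.3 CPM in KO. Each step from untreated WT through KO and DTC to DTEC was free of overlap. AMOTL2 was 1.74-fold in DTC (log2 0.80, SE 0.0968, adjusted p 4.55e-06) and 2.62-fold in DTEC (log2 1.39, SE 0.0978, adjusted p 7.78e-08). Against DTC, DTEC was 0.59 higher (SE 0.0961, adjusted p 0.000146), whereas CCN1, CCN2 and ANKRD1 were lower. Of the 12 deposited AMOTL2 values only 6 were whole numbers, and the gene shares 187 exon bases with the pseudogene RPL39P5, which had at most 6.53 counts in any library.

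**Figure D4:**
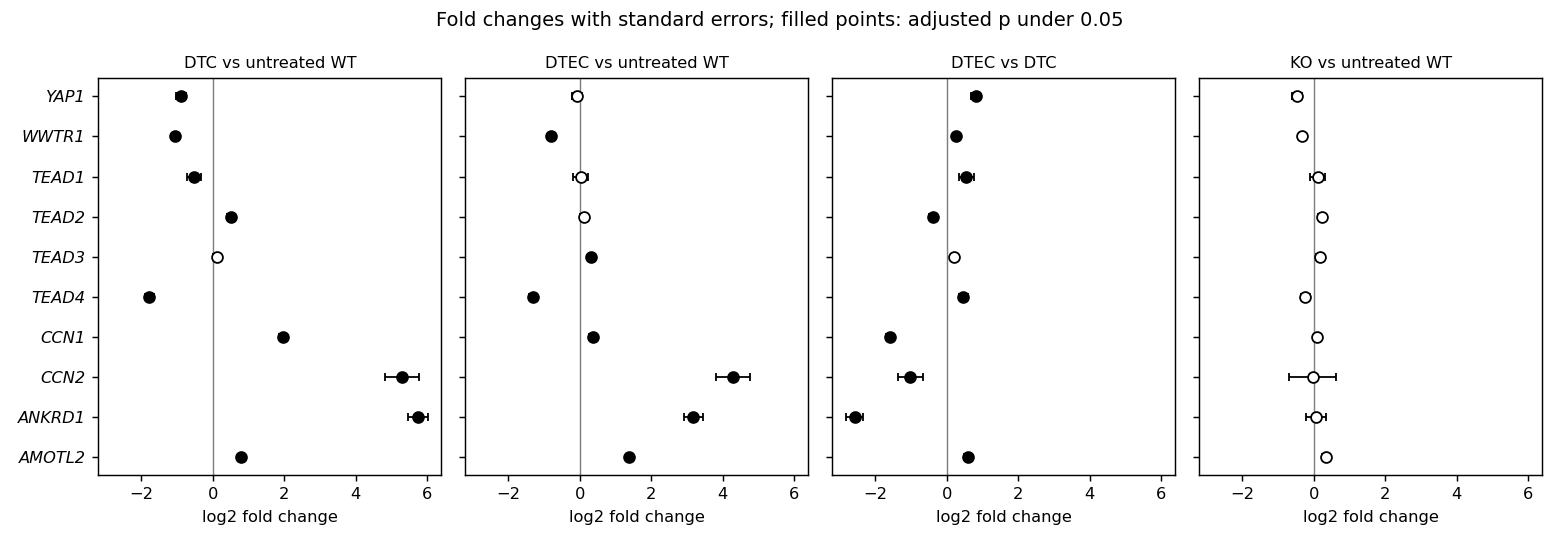
Log2 fold change of each gene (x axis) with its SE (bars) in the 4 comparisons, with filled points for an adjusted p under 0.05. Target genes lie right of 0 in DTC and in DTEC, CCN1, CCN2 and ANKRD1 lie left of 0 for DTEC against DTC, and no point is filled in KO.

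Markers of other cell types also differed between the groups. The summed level of 8 fibroblast and muscle markers was 55.7 to 58.5 CPM in DTC, of which COL1A1 alone gave 54.2 to 56.8 CPM, and for untreated WT, DTEC and KO it was 8.23 to 9.03, 11.3 to 14.5 and 13.5 to 15.4 CPM. Only COL1A1 and DES passed the count filter, and both were called higher in DTC. COL1A1 was also called higher in DTEC (log2 0.58, adjusted p 0.000638) and KO (0.73, 0.00194), and DES was not (adjusted p 0.212 and 0.121). DES had 1 to 4 counts in untreated WT and 12 to 27 in DTC, and LUM had 6 to 19 counts in DTC and 0 in the other 9 libraries. COL1A2, COL3A1 and DCN had 3 counts or fewer in all 12 libraries, and PDGFRB and MYH11 had at most 12.

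The 6 leukocyte and endothelial markers summed to 87.9 to 93.0 CPM in untreated WT, and for DTC, DTEC and KO to 78.4 to 102.9, 159 to 182 and 103 to 106 CPM. PECAM1 was at 28.97 to 35.2 CPM in untreated WT, called lower in DTC (7.62 to 9.77 CPM) and higher in DTEC (89.6 to 95.0 CPM) and KO (46.5 to 50.6 CPM). VWF, with 1 to 7 counts in untreated WT and 39 to 63 in DTC, and CD68 (log2 0.64, adjusted p 0.000838) were called higher in DTC. VWF was also called higher in DTEC (1.71, adjusted p 0.0196), and CD68 was not (0.33, 0.0589). CDH5 was not called in any of the 4 comparisons, and PTPRC and CD3E had at most 5 counts.

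Of the 5 lung epithelial markers, SFTPB had 41 to 62 counts in untreated WT, and for DTC, DTEC and KO it had 1 to 5, 354 to 563 and 149 to 241. It was called lower in DTC and higher in DTEC and KO. NKX2-1, with 9 to 15 counts in DTC and 0 to 2 in the other 9 libraries, and NAPSA, with 31 to 67 counts in DTC and 1 to 6 in untreated WT, were called higher in DTC. NAPSA was also called higher in DTEC (log2 2.08, adjusted p 0.00600), and NKX2-1 was not (0.43, 0.779). SFTPC had 3 counts or fewer and SCGB1A1 at most 11 in any library. The 5 epithelial markers summed to 4465 to 5022 CPM in DTC, and for untreated WT, DTEC and KO to 8862 to 9329.6, 7480.5 to 9812 and 9542 to 10260.1 CPM. They did not fall alike in DTC. KRT18 (log2 -1.31), KRT8 (-1.10), EPCAM (-0.81) and KRT19 (-0.33) were called lower, and CDH1 was not called (0.06, adjusted p 0.766). In DTEC EPCAM alone was called, and it was lower (-0.52, adjusted p 0.000545). The part of these markers, and of the mitochondrial share, in the levels of the 10 genes was not tested.

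In the TDP1 knockout line none of the 10 genes was called in the reported analysis, and the largest values were those of the coactivators and of AMOTL2. YAP1 gave -0.46 (SE 0.136, adjusted p 0.0767), WWTR1 -0.33 (SE 0.0927, adjusted p 0.0614) and AMOTL2 0.34 (SE 0.0965, adjusted p 0.0681). WWTR1 was at 117, 112 and 100.4 CPM in KO, below all untreated WT libraries. The libraries of KO and untreated WT did not overlap for 7 of the 10 genes, 4 higher and 3 lower, where 35.7% of all tested genes had no overlap. For CCN1, CCN2 and ANKRD1 the log2 differences were 0.10, -0.03 and 0.05, with adjusted p of 0.635, 0.992 and 0.949. YAP1, WWTR1 and AMOTL2 passed the threshold with DESeq2 (adjusted p 0.0411, 0.0125 and 0.0113). They also passed in edgeR with the KO and untreated WT libraries fitted alone (0.000241, 0.00553 and 0.00560), where TEAD2 passed as well (0.0375). That fit left DTC and DTEC out of the estimated spread. With all libraries, edgeR called YAP1 with no count filter (0.0318), and AMOTL2 with total counts alone (0.0297) or upper-quartile scaling (0.0413). With a term for the replicate number it called YAP1 (0.0263) and WWTR1 (0.0320).

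Per kilobase of exon, YAP1 was the highest of the 10 genes in untreated WT at 40.4 ± 2.18 CPM per kb (SD, n = 3), followed by CCN1 at 36.5 ± 1.18, TEAD4 at 22.8 ± 0.953, WWTR1 at 16.4 ± 0.211, TEAD1 at 13.5 ± 0.354, AMOTL2 at 12.2 ± 1.16, TEAD3 at 9.44 ± 0.849, TEAD2 at 9.29 ± 0.581, ANKRD1 at 1.54 ± 0.153 and CCN2 at 0.0756 ± 0.0708. TEAD3 and TEAD2 were the 1 pair of neighbours whose libraries overlapped. In DTC the order was led by CCN1 at 142 ± 6.50 and ANKRD1 at 82.7 ± 4.36 CPM per kb, with YAP1 (21.8 ± 5.24) and AMOTL2 (21.3 ± 1.52) next and overlapping each other. TEAD2 (13.2 ± 1.42), TEAD3 (10.2 ± 0.0873), TEAD1 (9.44 ± 3.76), WWTR1 (7.93 ± 0.550), TEAD4 (6.69 ± 0.901) and CCN2 (3.14 ± 0.121) came after them, and from TEAD3 to TEAD4 each neighbour overlapped the next. In DTEC CCN1 (46.9 ± 4.27), YAP1 (38.2 ± 2.76) and AMOTL2 (32.0 ± 1.23) led without overlap. ANKRD1 (13.9 ± 6.03), TEAD1 (13.9 ± 2.32), TEAD3 (11.8 ± 0.463), TEAD2 (10.0 ± 0.371), WWTR1 (9.52 ± 0.528) and TEAD4 (9.22 ± 1.02) followed, with CCN2 last (1.55 ± 0.399). Of these, TEAD3 and TEAD2 were the 1 pair of neighbours before CCN2 without overlap, but ANKRD1, from 8.33 to 20.3, overlapped all 5 genes from TEAD1 to TEAD4. In KO the order was CCN1 (39.1 ± 1.138), YAP1 (29.4 ± 1.38), TEAD4 (19.4 ± 1.79), AMOTL2 (15.4 ± 0.598), TEAD1 (14.6 ± 1.05), WWTR1 (13.1 ± 1.01), TEAD2 (10.8 ± 0.608), TEAD3 (10.6 ± 0.682), ANKRD1 (1.59 ± 0.193) and CCN2 (0.0775 ± 0.0397), and AMOTL2 overlapped TEAD1 and TEAD2 overlapped TEAD3.

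Likeness of pattern was measured for 5 of the genes as the root-mean-square difference over the 12 libraries in log2 CPM less the untreated WT mean, among 9713 genes with a mean of at least 10 CPM. The genes closest to YAP1 were AMOTL1 (0.0987), ROCK2 (0.107) and ZHX1 (0.109), where the median gene was at 0.560. Closest to CCN1 were OSR2 (0.135), MYD88 (0.137) and CRYBG2 (0.138), with a median of 1.22. Closest to AMOTL2 were TRIM62 (0.114), ELF3 (0.117) and FAM210B (0.123), with a median of 1.03. Values were larger for the rarer targets. ANKRD1 was closest to FILIP1L (0.332), H2AC6 (0.398) and RETREG1 (0.418), with a median of 3.45, and CCN2 to GBP2 (0.703), FILIP1L (0.909) and EDN1 (0.939), with a median of 3.66. Among the 10 genes themselves, CCN2 and ANKRD1 were each other's closest (0.985), as were YAP1 and TEAD1 (0.349) and TEAD2 and TEAD3 (0.245). These values are descriptions over libraries that fall into 4 groups.

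Other reported YAP and TAZ target genes were called in both directions, in shares to be read against all tested genes. Of 18 listed genes 16 were tested, and in DTC 8 were called higher and 4 lower (6 lower without DTC replicate 1, and 10 higher and 3 lower with total counts alone), against 34.0% higher and 33.3% lower among all tested genes, with a median log2 fold change of 0.53 against 0.0551. IGFBP3, a secreted IGF-binding protein, went from 57.8 ± 1.398 to 1459.7 ± 160 CPM (SD, n = 3; log2 4.66, adjusted p 8.29e-12). The kinase gene NUAK2 gave 3.18 (adjusted p 8.92e-09), and CCDC80, which encodes a matrix protein, 2.87 (adjusted p 5.38e-10). In DTEC 3 were higher (7 with total counts alone), 3 lower and 10 not called, against 26.0% higher and 26.3% lower among all tested genes, with a median of 0.13 against 0.0179. IGFBP3 remained higher at 2.23 (adjusted p 3.63e-09) and CCDC80 at 1.24 (adjusted p 2.69e-06), while FJX1 was lower (-1.53, adjusted p 1.90e-06). Between DTEC and DTC 5 were higher (3 with total counts alone) and 8 lower in DTEC, against a background of 28.8% and 26.6%, with a median of -0.33 against -0.00845, led by the stress-response gene GADD45A (-2.82, adjusted p 2.95e-09), IGFBP3 (-2.42, adjusted p 8.88e-10) and NUAK2 (-2.04, adjusted p 8.94e-07). In KO 1 was higher and 2 lower (0 and 1 without any 1 of the 6 compared libraries), against 4.31% of all tested genes called. AXL, a receptor tyrosine kinase gene, was at 53.1 ± 0.765 CPM in untreated WT and 21.4 ± 0.354 CPM in KO (log2 -1.31, adjusted p 1.00e-05). This was not particular to KO, since AXL was at 22.0 ± 3.49 CPM in DTC (log2 -1.27, adjusted p 1.28e-07). In DTEC AXL was at 56.4 ± 2.69 CPM and was not called against untreated WT (adjusted p 0.509). NT5E (-0.61, adjusted p 0.0455) and CCDC80 (0.54, adjusted p 0.0274) lost the call whenever any 1 of the 6 compared libraries was left out, with adjusted p of 0.118 to 0.192 and 0.0722 to 0.122.

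Genes of the Hippo kinase core and its regulators were likewise called in both directions. Of 28 listed genes 27 were tested, and in DTC 6 were called higher, 10 lower (13 without DTC replicate 1) and 11 not called, against 34.0% higher and 33.3% lower among all tested genes, with a median of -0.14 against 0.0551. The split was 11 higher and 7 lower with total counts alone, and 10 and 8 with upper-quartile scaling. The lowest were the STE20-type kinases TNIK (-1.78, adjusted p 1.90e-07) and MAP4K4 (-1.28, adjusted p 1.93e-07) and the atypical cadherin FAT1 (-1.24, adjusted p 0.000880). LATS2, the kinase that phosphorylates YAP and is itself a reported YAP target, was at 8.93, 12.1 and 9.29 CPM in untreated WT, 25.8, 19.5 and 20.9 CPM in DTC and 10.2, 9.05 and 9.23 CPM in DTEC. LATS2 was thus higher in DTC than in either other group without overlap (1.13, adjusted p 8.08e-06), lower in DTEC than in DTC (-1.21, adjusted p 8.40e-06) and not called in DTEC against untreated WT (-0.09, adjusted p 0.644). PTPN14, which binds YAP and also stands in both lists, was not called in DTC (0.32, adjusted p 0.153), DTEC (0.31, 0.188), DTEC against DTC (-0.01, 0.973) or KO (-0.16, 0.728). It was called higher in DTC with total counts alone (0.67, adjusted p 0.00653), with upper-quartile scaling (0.60, 0.0108) and without DTC replicate 3 (0.49, 0.0451), and in DTEC with total counts alone (0.48, 0.0496) and without DTEC replicate 3 (0.48, 0.0438).

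In DTEC 4 Hippo genes were higher, 7 lower (7 and 5 with total counts alone) and 16 not called against untreated WT, where 26.0% and 26.3% of all tested genes were higher and lower, with a median of -0.07 against 0.0179. AMOT, the angiomotin paralog of AMOTL2, was at 37.6, 39.4 and 42.3 CPM in untreated WT, 52.4, 30.7 and 33.7 CPM in DTC, 126, 122 and 118 CPM in DTEC and 74.2, 75.0 and 77.5 CPM in KO. AMOT was thus higher in DTEC (1.61, adjusted p 1.32e-06) and in KO (0.93, adjusted p 0.00351), where it was the 1 Hippo gene called against 4.31% of all tested genes, and the DTC libraries spanned the untreated WT range. TNIK (-0.79, adjusted p 0.000581) and RASSF1, a partner of the MST kinases (-0.71, adjusted p 7.71e-05), were lower in DTEC. Between DTEC and DTC 11 were higher and 7 lower, against a background of 28.8% and 26.6%, with a median of 0.15 against -0.00845, and the 11 became 7 without DTC replicate 3 and 9, beside 9 lower, with total counts alone. AMOT (1.64, adjusted p 9.39e-07) and the kinase TAOK3 (1.29, adjusted p 3.13e-06) were higher, and AJUBA, which restrains LATS kinases, was lower (-1.30, adjusted p 3.60e-07).

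**Figure D5:**
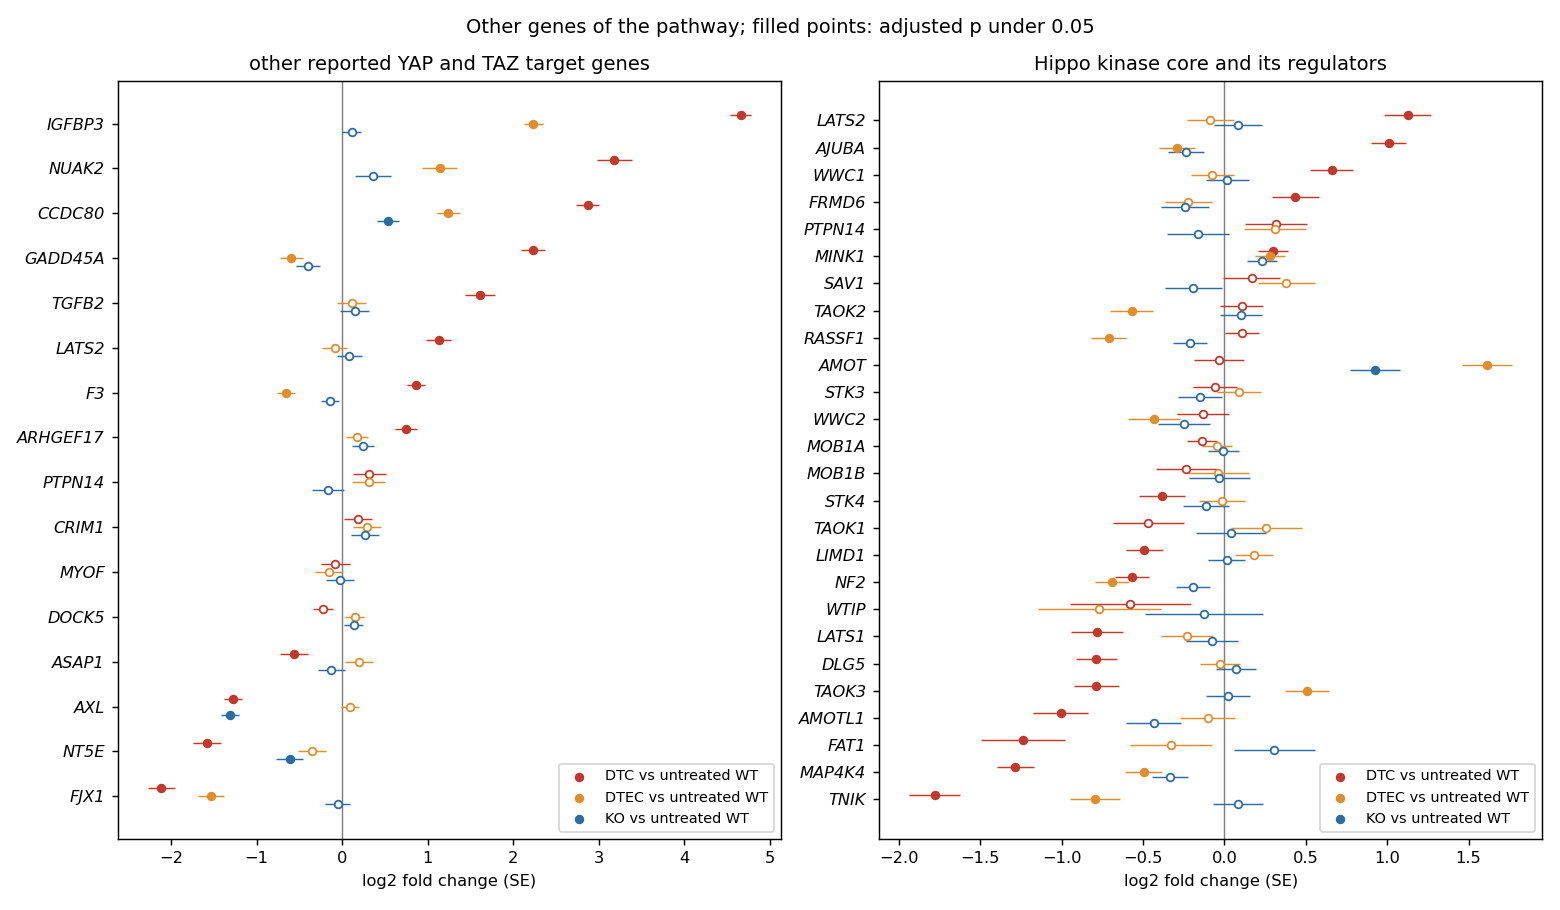
Log2 fold change (x axis, with SE) against untreated WT of the tested genes in the lists of other targets (left) and of Hippo genes (right), ordered by the value in DTC, with filled points for an adjusted p under 0.05. FAT4, which had 1 to 3 counts in each untreated WT library, is left out, and both lists hold genes on either side of 0 in DTC. FAT4 had the largest change of the Hippo list in DTC (log2 5.31, adjusted p 7.93e-07). It was also called higher in DTEC (2.67, adjusted p 0.00170), and both values rest on few counts in untreated cells.

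Vestigial-like proteins bind TEADs in place of YAP and TAZ. Of the 4 genes 3 were tested, and VGLL3 went from 4.15, 2.93 and 4.47 CPM in untreated WT to 36.2, 22.3 and 24.98 CPM in DTC and 14.98, 13.0 and 11.5 CPM in DTEC. Its log2 fold change was 2.85 in DTC (adjusted p 3.28e-08), 1.76 in DTEC (adjusted p 8.46e-06) and -1.08 for DTEC against DTC (adjusted p 0.000292). VGLL1 rose by 0.31 in DTC (adjusted p 0.00609; 0.0571 with no count filter), by 1.04 in DTEC (adjusted p 3.61e-07) and by 0.73 from DTC to DTEC (adjusted p 8.07e-06). In KO 0 of the 3 were called in the reported analysis, and 0 had an unadjusted p under 0.05, against 4.31% and 16.6% of all tested genes. Of the other CCN genes 2 of 4 were tested, both called higher in DTC and lower in DTEC than in DTC. Among all tested genes these shares were 34.0% and 26.6%. CCN5 had 0, 0 and 1 counts in untreated WT, 58, 91 and 80 in DTC, 4, 3 and 16 in DTEC and 0 in each KO library. CCN3 had 37, 42 and 48 counts in untreated WT, 82, 65 and 78 in DTC, 12, 8 and 15 in DTEC and 39, 30 and 28 in KO, so that its DTEC libraries lay below all others.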

How the data were processed

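Polyadenylated RNA of 12 PC9 libraries was measured, 3 in each of 4 groups, from stranded paired-end libraries per the labels' protocols. The authors deposited expected counts, that is estimated read counts per gene without scaling to depth. The submitters' processing notes name RSEM 1.3.1, Bowtie2 2.5.2, DESeq2 1.40.2 and GRCh38, with no role or order. The annotation, the strand setting and any filter are not given in the sources used here. The table had 0 columns of other samples.

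After rounding, edgeR 4.0.16 under R 4.3.3 was applied to the 17115 genes that its filterByExpr function kept. A single model of the 12 libraries, with TMM factors and a term for each of the 4 groups, gave quasi-likelihood F tests, with Benjamini-Hochberg adjustment over the 17115 genes and calls at an adjusted p under 0.05. The procedure was tested on simulated data in which few genes changed, in DTC alone and equally in both directions. That simulation did not cover comparisons in which most genes are called, as in those that involved the drug. Each SE belongs to the log2 fold change beside it. Symbols were found for 99.9% of identifiers. Coordinates and exon lengths came from GENCODE 29 on GRCh38, and promoter windows from RefSeq on GRCh38.p14. Depth limits precision to about 0.1 CPM, and floors cover counting error only, since the reads carried no molecular identifiers.

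The 10 genes and the gene lists were chosen with earlier results of these data known. Named genes are all 10, TDP1, LATS2 and PTPN14, and from each list other than the marker lists the 3 called genes with the largest absolute change and a mean of at least 5 CPM in each comparison. CCN3, CCN5, FAT4 and the markers fall outside this rule and were named after their values were seen. For 5 genes the 3 closest patterns are named. Alternatives were RLE, upper-quartile and total-count scaling, no count filter, the compared groups alone, DESeq2 1.42.0, a replicate block and leaving out each library. The same alternatives for list genes were added after the data had been seen.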

Additional observations from a re-analysis of the deposited data

Results flagged for a closer look

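DTEC and DTC differed for 9 of the 10 genes (edgeR's quasi-likelihood test, adjusted p under 0.05), where 55.4% of all tested genes were called. Time in the drug and the expansion of the cells cannot be told apart in this comparison. On the log2 scale the level in DTEC less that in DTC was 0.81 for YAP1, 0.26 for WWTR1, 0.55 for TEAD1, 0.46 for TEAD4 and 0.59 for AMOTL2. It was -0.39 for TEAD2, -1.60 for CCN1, -1.02 for CCN2 and -2.57 for ANKRD1. Of these, the values of WWTR1, TEAD1, TEAD4 and CCN2 lost the call under at least 1 alternative analysis. Those of YAP1, TEAD2, CCN1, ANKRD1 and AMOTL2 were called in all 13 alternatives.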

How the results depend on the processing

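Of the 10 genes, the 13 alternatives called 8 or 9 for DTC against untreated WT, from 6 up to 8 for DTEC against untreated WT and from 6 up to 9 for DTEC against DTC. In KO it was 0 in the reported analysis, 1 with total counts alone, 1 with upper-quartile scaling, 1 with no count filter, 4 with the compared groups alone and 3 with DESeq2, and 0 without any 1 library. Over all genes the alternatives called 10640 to 12323 for DTC against untreated WT, 7766 to 9255 for DTEC against untreated WT and 7856 to 10610 for DTEC against DTC. The KO count of 738 over all genes became 1147 with no count filter, 2656 with the compared groups alone and 1146 with DESeq2, and 321 to 426 without any 1 library.

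The replicate block gave 9, 7, 9 and 2 of the 10 genes in DTC, in DTEC, for DTEC against DTC and in KO, and 11775, 9255, 9732 and 887 of all genes. The 2 in KO were YAP1 (adjusted p 0.0263) and WWTR1 (0.0320). Libraries of the same number deviated together with correlations of -0.0130 to 0.179 and not above 0.1 in every pair of any comparison, so the numbers were not taken to pair the cultures. In KO against untreated WT every KO library correlated best with its own number, at 0.0378 to 0.0629. Replicate 1 did so in the drug comparisons too, at 0.179 in DTC, 0.0975 in DTEC and 0.139 for DTEC against DTC. The other numbers did so there only in part. These are hints from the data and not from the design.

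Signs changed only for values that were not called. YAP1 in DTEC was 0.086 with total counts alone and 0.032 with upper-quartile scaling. CCN2 in KO was 0.039 with total counts alone and ran from -0.53 to 0.72 without any 1 library. With the compared groups alone CCN2 did not pass the count filter in KO and was not tested. TEAD1 in DTEC ran from -0.055 to 0.15 without any 1 library. LATS2 in DTEC was 0.081 with total counts alone, 0.028 with upper-quartile scaling and -0.15 to 0.073 without any 1 library. PTPN14 for DTEC against DTC ran from -0.16 to 0.19 without any 1 library. The cause of these changes was not tested.

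The motif GGAAT in place of GGAATG was found for 5 genes in place of 4, where 32.2% in place of 11.9% of all windows held at least 1 match. With the longest transcript as length, the order changed for 1 pair of the 10 genes in untreated WT and for 4, 7 and 2 pairs in DTC, DTEC and KO. With a prior count of 0.5, 1 of the 3 genes closest to CCN2 was shared. CCN2 in untreated cells is limited by depth.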
